A study of Mus musculus with 5 samples.

Results

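Adventitial fibroblasts line the cuffs of connective tissue around the airways and large vessels of the lung, and carry surface antigens and secreted proteins that alveolar fibroblasts make less of. The genes followed here are 10 markers of these cells, chosen by name: Pi16, Dpt, Ly6a, Ly6c1, Clec3b, Cd34, Dpp4, Has1, Gsn and C3. All 10 were found among the 23478 gene symbols of the count table, and all 10 passed the filter on low counts that left 15298 genes for testing.

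The counts come from RNA-Seq of 5 libraries of GFP-sorted mouse lung cells at P6. The comparison asks how the markers differed once Igf1r, the receptor for insulin-like growth factors, was deleted from these cells. The 2 control libraries are from Rosa-EGFP, Gli1creER+ pups with 1 floxed and 1 wild-type Igf1r allele, and the 3 Igf1r-deleted (mutant) libraries from Rosa-EGFP, Gli1creER+ pups with 2 floxed alleles. Both genotypes received 100 µg of tamoxifen per pup on P0 and P1, so both carry active Cre, and the controls can lose 1 copy of Igf1r. The Gli1-driven Cre labels the cells that expressed Gli1 at that time and their progeny, and the mice were of mixed background and both sexes, with pups per library not given in the sources used here.

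Several of these proteins act outside the cell. C3 is the central protein of the complement cascade, Clec3b encodes tetranectin, a lectin that binds plasminogen, Gsn encodes gelsolin, which severs actin filaments and also has a secreted form, Dpt encodes dermatopontin, a small matrix protein that binds decorin and fibronectin, and Has1 encodes a hyaluronan synthase. The others are on the cell surface. Pi16 encodes a peptidase inhibitor, Cd34 a sialomucin of progenitor and endothelial cells, and Dpp4 a dipeptidyl peptidase. Ly6a (Sca-1) and Ly6c1 encode small GPI-anchored proteins that endothelial cells also carry. In bulk RNA, fewer cells of a type and less RNA per cell cannot be told apart.

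Library totals were 35116766 to 37597857 counts. Igf1r itself was at 324 and 324 CPM (counts scaled to the library total and its TMM factor) in the controls and 140, 177 and 194 CPM in mutants. Markers of other lung cells were present in every library, and no marker on the lists for leukocytes, endothelium, mesothelium or epithelium was at 0. On the first principal component, which held 47.8% of the variance, control replicate 1 lay farthest to one side and control replicate 2 lay beside mutant replicate 1.

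Windows upstream of 3 of the genes are printed here because C3 and Gsn were lower after deletion while Dpt was near the control level. Each is the 250 bases before a RefSeq start site (GRCm38.p6), 5′ to 3′ on the strand of the gene. C3 is on the minus strand of chromosome 17 (chr17:57228137-57228386), Gsn on the plus strand of chromosome 2 (the farthest upstream of its 3 windows, chr2:35256109-35256358) and Dpt on the plus strand of chromosome 1 (chr1:164796413-164796662). Capitals mark matches to the motifs searched.
C3: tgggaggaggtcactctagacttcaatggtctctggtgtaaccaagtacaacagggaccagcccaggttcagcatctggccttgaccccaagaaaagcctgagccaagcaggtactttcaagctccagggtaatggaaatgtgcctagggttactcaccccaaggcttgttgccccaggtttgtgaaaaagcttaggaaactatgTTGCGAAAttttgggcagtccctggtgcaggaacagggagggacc
Gsn: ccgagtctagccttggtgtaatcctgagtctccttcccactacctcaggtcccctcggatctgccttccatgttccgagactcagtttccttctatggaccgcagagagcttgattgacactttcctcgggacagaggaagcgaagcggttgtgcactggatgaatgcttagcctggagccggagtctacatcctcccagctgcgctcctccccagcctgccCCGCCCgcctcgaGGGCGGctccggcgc
Dpt: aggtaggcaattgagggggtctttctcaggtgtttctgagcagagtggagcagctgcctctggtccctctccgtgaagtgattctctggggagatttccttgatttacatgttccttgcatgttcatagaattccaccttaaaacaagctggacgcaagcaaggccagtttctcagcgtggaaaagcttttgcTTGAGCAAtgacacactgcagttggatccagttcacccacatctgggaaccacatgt

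The motifs were searched on both strands in 32817 windows of this length. They were the TATA box (TATAAA, in 12.4% of windows), the FOXO core (GTAAACA, 3.16%), AP-1 (TGANTCA, 6.75%), C/EBP (TTGCNNAA, 9.57%) and the GC box (GGGCGG, 32.7%). No 2 of the matches printed above overlap. The C/EBP letters occurred in the windows of C3 (37 bases before the start) and of Dpt (49 bases before), and the GC box in all 3 windows of Gsn. TATAAA was found in 1 of the 2 windows of Ly6c1 and in that of Dpp4, and the FOXO and AP-1 letters in none of the 11 windows found for 8 of the 10 genes. A match of letters is a description of the sequence and not evidence of binding.

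The markers were expressed over a wide range. Per kilobase of exon, Dpt (mean 979 CPM per kb over the 5 libraries), Gsn (970 CPM per kb) and Clec3b (610 CPM per kb) were the highest, and the ranges of neighbours in this order overlapped. Cd34 followed at 80.0 CPM per kb, with no library as high as the lowest of Clec3b, and C3 at 44.4 CPM per kb, whose range overlapped that of Cd34 but not that of Has1. Has1 (10.1 CPM per kb), Ly6a (9.97 CPM per kb), Pi16 (6.92 CPM per kb) and Ly6c1 (4.16 CPM per kb) came next, each overlapping the next. Dpp4 was the lowest at 1.44 CPM per kb and did not overlap Ly6c1. The markers most used to define adventitial cells, Pi16, Dpp4 and Ly6a, were thus scarce in these sorted cells beside Dpt, Gsn and Clec3b. Alveolar fibroblast markers (20 genes) summed to 29586 to 34145 CPM per library, against 4526 to 8508 CPM for the 10 adventitial markers. A list of 30 other adventitial markers summed to 5450 to 7356 CPM. The lists hold different genes, so these sums do not measure shares of cells.

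Of the 10 markers, 8 were lower and 2 higher in mutants, with a median log2FC of −0.43 (log2 fold change, mutant over control). Over all tested genes 47.7% were lower, and the median was 0.015. With edgeR's quasi-likelihood test and Benjamini-Hochberg adjustment over all tested genes, 0 of the 10 had an adjusted p under 0.05, as was so for 0% of all genes. At an unadjusted p under 0.05, 3 markers were lower (C3, Clec3b and Gsn), where 6.75% of all genes were lower at that threshold, and 0 were higher, against 5.65% of all genes. DESeq2's Wald test called 1 marker, C3, at an adjusted p under 0.05, against 1.7% of the genes to which it gave an adjusted p (1.23% of them lower), and limma voom called 0. For C3, Clec3b and Dpp4 the genotypes did not overlap, all with lower mutants. Of all genes, 14.9% did not overlap with lower mutants, and 31% did not overlap in either direction. The count at an unadjusted p under 0.05 was 1, C3 each time, without control replicate 1 (2.76% of all genes in either direction), mutant replicate 2 (6.58%) or mutant replicate 3 (7.35%). It was 4 without control replicate 2 (C3, Clec3b and Gsn lower and Cd34 higher, 14.8% of all genes) and 4 without mutant replicate 1 (C3, Clec3b, Gsn and Has1, all lower, 21% of all genes).

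**Figure D1:**
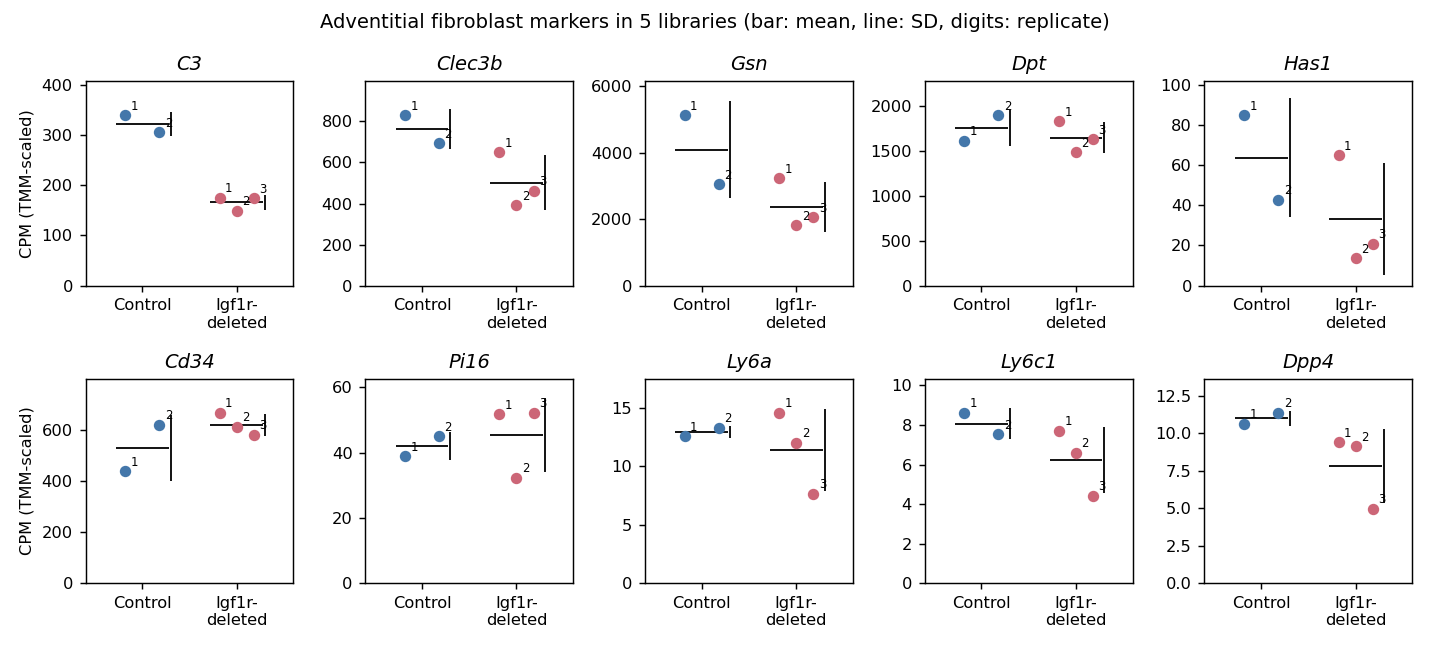
Level of each marker in CPM (linear axes from 0) in the 2 control and 3 mutant libraries. Points are libraries with their replicate number, horizontal bars the group means and vertical lines the SD. The C3 points of the genotypes are far apart (305 CPM or more against 175 CPM or less). Those of Pi16, Dpt, Cd34, Ly6a, Gsn, Has1 and Ly6c1 interleave.

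C3 had the smallest p of the 10 markers and ranked 2 among the 15298 genes tested. Its locus on the minus strand of chromosome 17 spans 57203970 to 57228136 (mm10). Control libraries held 11777 and 11185 C3 counts, and mutants 6184, 5930 and 6232. These are levels of 339 and 305 CPM against 175, 149 and 173 CPM. The 3 mutants lay close together, and all were well under both controls. The mean was 322 ± 24.0 CPM (SD, n = 2) in controls and 166 ± 14.6 CPM (SD, n = 3) after deletion, a log2FC of −0.96 (standard error, SE, 0.11, 95% interval −1.22 to −0.69). The adjusted p was 0.306 with edgeR's quasi-likelihood test and 6.55e-10 with DESeq2's Wald test. The other scalings and filters and limma voom gave 0.129 to 0.297. Leaving out any 1 library kept the log2FC between −1.04 and −0.88, with adjusted p-values in edgeR from 0.0533 without control replicate 2 to 1 without control replicate 1. With 2 libraries against 3, an exact permutation test cannot give a p below 0.1.

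Clec3b, on chromosome 9 from 123150946 to 123157432, was also lower in each mutant. Controls were at 830 and 693 CPM and mutants at 649, 393 and 462 CPM. Mutant replicate 1 was much nearer the controls than the other two. The log2FC was −0.60 (SE 0.21, 95% interval −1.10 to −0.11, unadjusted p = 0.0237 and adjusted p = 0.364 with edgeR's quasi-likelihood test). It ran from −0.84 to −0.46 with 1 library left out, the first value without mutant replicate 1 and the second without mutant replicate 2.

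Gsn was the 17th most abundant gene by CPM of all those tested. The gene spans 35256380 to 35307892 of chromosome 2. Levels were 5134 and 3064 CPM in controls and 3236, 1816 and 2055 CPM in mutants. Control replicate 1 stood above all others, and control replicate 2 was below mutant replicate 1, so the genotypes overlapped. The log2FC of −0.79 (SE 0.30, unadjusted p = 0.0325 and adjusted p = 0.376 with edgeR's quasi-likelihood test) shrank to −0.38 if control replicate 1 was left out and grew to −1.13 if control replicate 2 was. Of the gelsolin family, 7 genes were tested and 4 were lower, 2 of them (Gsn and Capg) at an unadjusted p under 0.05, with a median log2FC of −0.19 that became 0.10 without control replicate 1. Capg, a capping protein of actin filaments, was lower (30.5 and 23.8 CPM against 20.7, 16.2 and 19.8 CPM, log2FC −0.52, SE 0.16), and its genotypes did not overlap. Without control replicate 1 the log2FC of Capg was −0.34, and 0 of the family had an unadjusted p under 0.05. Svil, which encodes supervillin and was the second most abundant of the family, had 176 and 165 CPM against 182, 177 and 195 CPM, and Vill had a log2FC of 0.46 (SE 0.33).

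Has1 was the most variable marker, with 6.2 times as much in the highest library as in the lowest. It lies on chromosome 17 from 17843323 to 17855205. It had 84.8 and 42.7 CPM in controls and 65.0, 13.7 and 20.9 CPM in mutants. Mutant replicate 1 lay between the controls, and the other 2 were below both. The log2FC of −0.94 had a wide 95% interval, from −2.37 to 0.49 (adjusted p = 0.533 with edgeR's quasi-likelihood test). It was −0.37 without control replicate 1 and −1.89 without mutant replicate 1. Has2, the synthase of the same family that makes most hyaluronan in development, was also highest in control replicate 1 and mutant replicate 1, with 85.3 and 26.9 CPM against 36.2, 7.75 and 7.07 CPM (log2FC −1.73, SE 0.75). The log2FC of Has2 was −0.67 without control replicate 1 and −2.93 without mutant replicate 1.

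Among 21 tested genes of hyaluronan synthesis, binding and breakdown, 11 were lower and 10 higher (median log2FC −0.11). The receptor gene Cd44 was higher in every mutant, at 466, 441 and 439 CPM against 248 and 382 CPM, and was the only 1 of the 21 with an unadjusted p under 0.05 (log2FC 0.51, SE 0.18). Its log2FC was 0.23 without control replicate 1, where the unadjusted p was no longer under 0.05, and 0.84 without control replicate 2. Hyal2, which encodes a hyaluronidase, had a log2FC of 0.28 (SE 0.14). Vcan, a proteoglycan that binds hyaluronan, had 613 and 1203 CPM in controls and 905 to 1256 CPM after deletion, so the controls alone spanned most of its range.

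Dpt, on chromosome 1 from 164796644 to 164824266, differed least in proportion between libraries, by 1.28 times from lowest to highest. The levels were 1611 and 1895 CPM in controls and 1825, 1483 and 1625 CPM in mutants, which overlapped. The log2FC was −0.092 with a 95% interval of −0.43 to 0.25, so a difference as large as that of C3 lies outside the interval. Dpt, its binding partners and related matrix genes formed a list of 8, of which 7 were lower, with a median log2FC of −0.16 and 0 at an unadjusted p under 0.05. Without mutant replicate 1 all 8 were lower (median −0.39). In that run 4 had an unadjusted p under 0.05, where 21% of all genes passed in either direction. The count was 0 without mutant replicate 2 or mutant replicate 3, and 2 with DESeq2's Wald test (13.2% of all genes). Fn1, which encodes fibronectin, was lowest in mutant replicates 2 and 3 (9625 and 10716 CPM, against 15556 CPM in replicate 1 and 18488 and 16143 CPM in controls). Dcn, which encodes decorin, had 338 and 400 CPM against 342, 215 and 270 CPM, and Lum, which encodes lumican, 93.1 and 126 CPM against 120, 62.1 and 64.1 CPM. Bgn, which encodes biglycan, had a log2FC of −0.063 (SE 0.15).

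**Figure D2:**
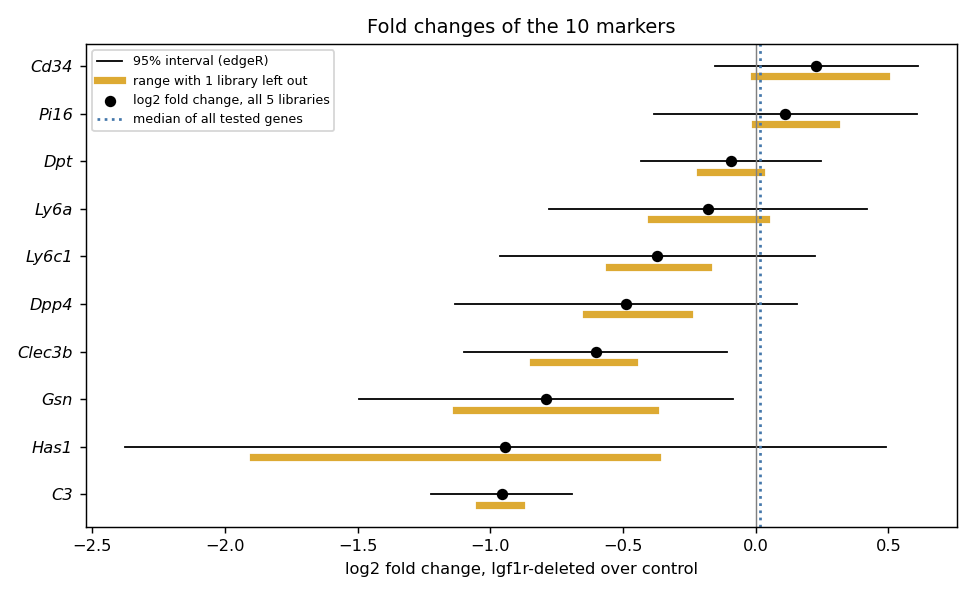
Log2 fold change of each marker, mutant over control (points), with its 95% interval from edgeR (black lines) and the range with 1 library left out (yellow bars). The dotted line is the median of all tested genes (0.015). C3 has the narrowest interval of the markers with values under −0.5, and the yellow bars of Cd34, Pi16, Dpt and Ly6a cross 0.

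Of the 5 surface markers 0 had an unadjusted p under 0.05. Pi16, on chromosome 17 from 29317680 to 29330593, had 38.9 and 45.1 CPM in controls and 51.8, 32.3 and 52.2 CPM in mutants. The controls lay inside the range of the mutants. Its log2FC was 0.11 (SE 0.21, 95% interval −0.38 to 0.61), and −0.0018 without mutant replicate 3. Exons of Pi16, Cd34 and Dpp4 overlap a gene on the opposite strand over 3.49%, 2.03% and 3.67% of their length, and without known strand use such reads cannot be told apart.

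Cd34, on chromosome 1 from 194938819 to 194961279, had 438 and 620 CPM in controls and 666, 612 and 582 CPM after deletion. Only control replicate 1 stood apart, and the log2FC of 0.23 (95% interval −0.15 to 0.61) was −0.0050 without it. The direction of Cd34 thus rested on that library.

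Dpp4, on chromosome 2 from 62330073 to 62412231, had 10.6 and 11.4 CPM in controls and 9.38, 9.13 and 4.98 CPM in mutants. All deleted libraries were under both controls, but replicate 3 was far below the other two. The log2FC was −0.49 (SE 0.27, adjusted p = 0.482 with edgeR's quasi-likelihood test) and −0.25 without mutant replicate 3. Of 7 tested genes of the dipeptidyl peptidase family and its relatives, 4 were lower and 3 higher, and 0 had an unadjusted p under 0.05. Dpp8 and Dpp9, the cytosolic enzymes, were the most abundant, with log2FCs of −0.12 (SE 0.092) and 0.11 (SE 0.12). Prep had a log2FC of 0.18 (SE 0.10), and Dpp6 was under 1 CPM in every library.

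Ly6a, on chromosome 15 from 74994877 to 74998031, had 12.6 and 13.3 CPM in controls and 14.6, 12.02 and 7.65 CPM in mutants, and Ly6c1, from 75044018 to 75048830, had 8.61 and 7.53 CPM against 7.71, 6.59 and 4.42 CPM. For both genes mutant replicate 3 was the lowest library and the genotypes overlapped. The log2FC of Ly6a was −0.18 (95% interval −0.78 to 0.42) and 0.038 without mutant replicate 3. That of Ly6c1 was −0.37 (95% interval −0.96 to 0.22) and −0.18 without it. Both genes lie in a cluster of near-identical copies on chromosome 15, and 31.9% of the 31-base sequences of Ly6a transcripts and 46.8% of those of Ly6c1 occur in transcripts of other genes, most often in Ly6c1 and Ly6c2 respectively. How the authors' counting divided such reads is not given in the sources used here, so both values are uncertain. Ly6c2 had 3.89 and 3.74 CPM against 6.15, 1.64 and 1.06 CPM. Of 15 tested genes of the Ly6 family 10 were lower, with 0 at an unadjusted p under 0.05. Ly6e, the most abundant, also had its lowest level in mutant replicate 3 (44.0 CPM, against 76.9 to 84.1 CPM in the others). Cd59a had a log2FC of −0.23 (SE 0.22), Ly6d of −1.30 (SE 0.74), and Lypd3 was under 1 CPM throughout.

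Mutant replicate 3 was also the library with the least signal from endothelium, leukocytes and epithelium. The 15 endothelial markers, with Pecam1, Cdh5 and Cldn5 among them, summed to 728 and 702 CPM in controls and 662, 982 and 351 CPM in mutant replicates 1, 2 and 3. Of these 15 markers 10 were lower and 0 had an unadjusted p under 0.05. The 15 leukocyte markers were lower for all 15 genes, 5 of them at an unadjusted p under 0.05 (6.75% of all genes). They summed to 702 and 550 CPM in controls and 572, 424 and 266 CPM after deletion. Without control replicate 1, 13 of the 15 were lower, and the median log2FC moved from −0.70 to −0.56. The count of 5 was 11 without mutant replicate 1, where 21% of all genes passed in either direction. It was 4 without mutant replicate 2 (6.58%) and 2 without mutant replicate 3 (7.35%). The epithelial list of 12 genes summed to 1203 and 1127 CPM against 834, 1212 and 548 CPM, with 10 of the 12 lower and 1 at an unadjusted p under 0.05. The part of such cells in the values of Ly6a, Ly6c1, Dpp4 and Cd34 was not tested. Mesothelial cells, which also make C3, had 11 markers in the table, of which 9 were lower. These summed to 544 and 550 CPM in controls and 464, 415 and 554 CPM after deletion. The part of mesothelial cells or leukocytes in the level of C3 was not tested.

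**Figure D3:**
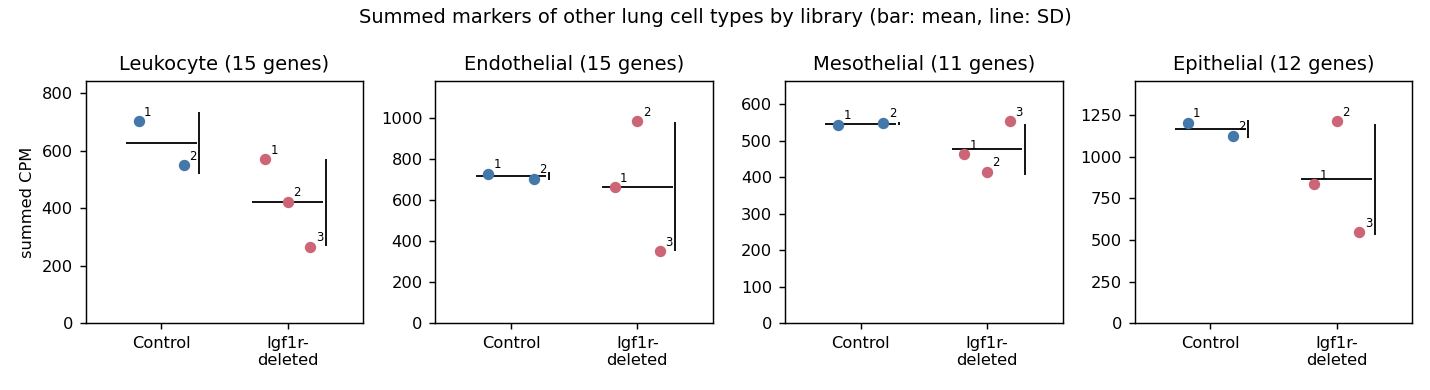
Summed level in CPM (linear axes from 0) of marker lists of other lung cell types in each library. Points are libraries with their replicate number, horizontal bars the group means and vertical lines the SD. Mutant replicate 3 is the lowest for leukocyte (266 CPM), endothelial (351 CPM) and epithelial (548 CPM) markers but the highest for mesothelial markers (554 CPM).

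The complement cascade, in which C3 is cleaved to tag surfaces and draw in phagocytes, was followed through a list of 28 genes, of which 23 were tested. Of the 23, 21 were lower in mutants and 2 higher, with a median log2FC of −0.45. At an unadjusted p under 0.05, 9 were lower (6.75% of all genes) and 0 higher. For 11 the genotypes did not overlap, all lower (14.9% of all genes, and 31% in either direction). C3 is 1 of the 9 and of the 11. The count of 9 was 4 without control replicate 1, where 2.76% of all genes had an unadjusted p under 0.05 in either direction. It was 12 without control replicate 2 (14.8% of all genes), 12 without mutant replicate 1 (21%), 8 without mutant replicate 2 (6.58%) and 10 without mutant replicate 3 (7.35%). With edgeR's adjusted p 0 of the 23 were called, and DESeq2's Wald test called 4, namely C3, C7, C4b and Masp1. With library totals in place of TMM, 20 of the 23 were lower, 7 of them at an unadjusted p under 0.05.

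C7, a protein of the membrane attack complex, had 318 and 306 CPM in controls and 208, 199 and 190 CPM in mutants. The libraries of each genotype lay close together and the genotypes did not overlap (log2FC −0.65, SE 0.095, adjusted p = 0.310 with edgeR's quasi-likelihood test and 1.21e-07 with DESeq2's Wald test). C4b, from which the C3 convertase of the classical pathway is built, had 82.7 and 81.4 CPM against 40.0, 34.3 and 57.1 CPM (log2FC −0.91, SE 0.20). Masp1, a protease of the lectin pathway, was scarce, at 9.04 and 6.14 CPM against 4.05, 2.84 and 2.09 CPM.

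Serping1, the C1 inhibitor and the most abundant gene of the list, had 1208 and 1034 CPM in controls and 1002, 813 and 948 CPM after deletion (log2FC −0.28, SE 0.14). The genotypes did not overlap, but the gap between them was small beside the spread of the libraries. The 2 genes of the list that were higher were Cd55 and Cd46, and neither had an unadjusted p under 0.05. Cd46 was near the floor, at 0.26 to 0.95 CPM. The C1q genes and the receptor genes C3ar1 and C5ar1, which macrophages express, were also lower, by 0.49 to 0.85 on the log2 scale, as the 15 leukocyte markers were, and the part of leukocytes in these values was not tested.

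Other markers of adventitial fibroblasts were tested for 30 genes, none of them among the 10. They divided into 19 lower and 11 higher, with a median log2FC of −0.10. At an unadjusted p under 0.05, 3 were higher (5.65% of all genes) and 3 lower (6.75%). These counts were 4 higher and 11 lower without mutant replicate 1, where 21% of all genes passed in either direction. They were 3 and 2 without mutant replicate 2 (6.58%) and 1 and 2 without mutant replicate 3 (7.35%). With DESeq2's Wald test they were 5 and 8 (13.2%). The median was −0.13 without control replicate 1, −0.093 without control replicate 2 and 0.0062 without mutant replicate 2. With library totals in place of TMM 16 were lower and 14 higher. Scara5, a ferritin receptor of these fibroblasts, had 96.2 and 47.6 CPM in controls and 42.3, 22.9 and 27.3 CPM in mutants (log2FC −1.22, SE 0.33). Ogn, which encodes osteoglycin, had 1047 and 737 CPM against 649, 348 and 458 CPM (log2FC −0.88, SE 0.26). Both were lower in all 3 deleted libraries, with control replicate 1 the highest, and both were called by DESeq2's Wald test (adjusted p = 0.0268 for Scara5 and 0.0487 for Ogn). Without control replicate 1 the log2FC was −0.63 for Scara5 and −0.61 for Ogn. In the other direction Sfrp4, a secreted Wnt antagonist, had 1.24 and 1.42 CPM against 1.90, 3.72 and 3.78 CPM (log2FC 1.24, SE 0.39). Sfrp4 was scarce, and its log2FC was 1.14 without control replicate 1 and 1.08 without mutant replicate 3. Fbn1, which encodes fibrillin-1 and was the most abundant of the list, had 2887 and 3176 CPM against 2924, 2120 and 2086 CPM. Of the other mesenchymal lists, alveolar fibroblast markers divided into 12 lower and 8 higher of 20 (median −0.091) and pericyte markers into 6 and 6 of 12. At an unadjusted p under 0.05, 4 alveolar markers were lower (6.75% of all genes) and 1 higher (5.65%). The count of 4 was 6 without mutant replicate 1 (21%), 3 without mutant replicate 2 (6.58%) and 2 without mutant replicate 3 (7.35%). DESeq2's Wald test called 1 alveolar marker, against 1.7% of genes. Of the pericyte markers 2 were lower and 0 higher at an unadjusted p under 0.05. Myofibroblast markers divided into 5 lower and 15 higher of 20 (median 0.35). Leaving out control replicate 1 lowered this value to 0.15, and leaving out control replicate 2 raised it to 0.56. The size of the rise thus depended on which control library was kept. Summed over the 20 genes, levels were 22939 and 17482 CPM in controls and 18963, 16687 and 17470 CPM in mutants. Control replicate 1 had the highest of these sums. At an unadjusted p under 0.05, 7 of them were higher (5.65% of all genes) and 2 lower (6.75%). The count of 7 was 11 without mutant replicate 1, where 21% of all genes passed in either direction. It was 2 without mutant replicate 2 (6.58%) and 4 without mutant replicate 3 (7.35%).

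**Figure D4:**
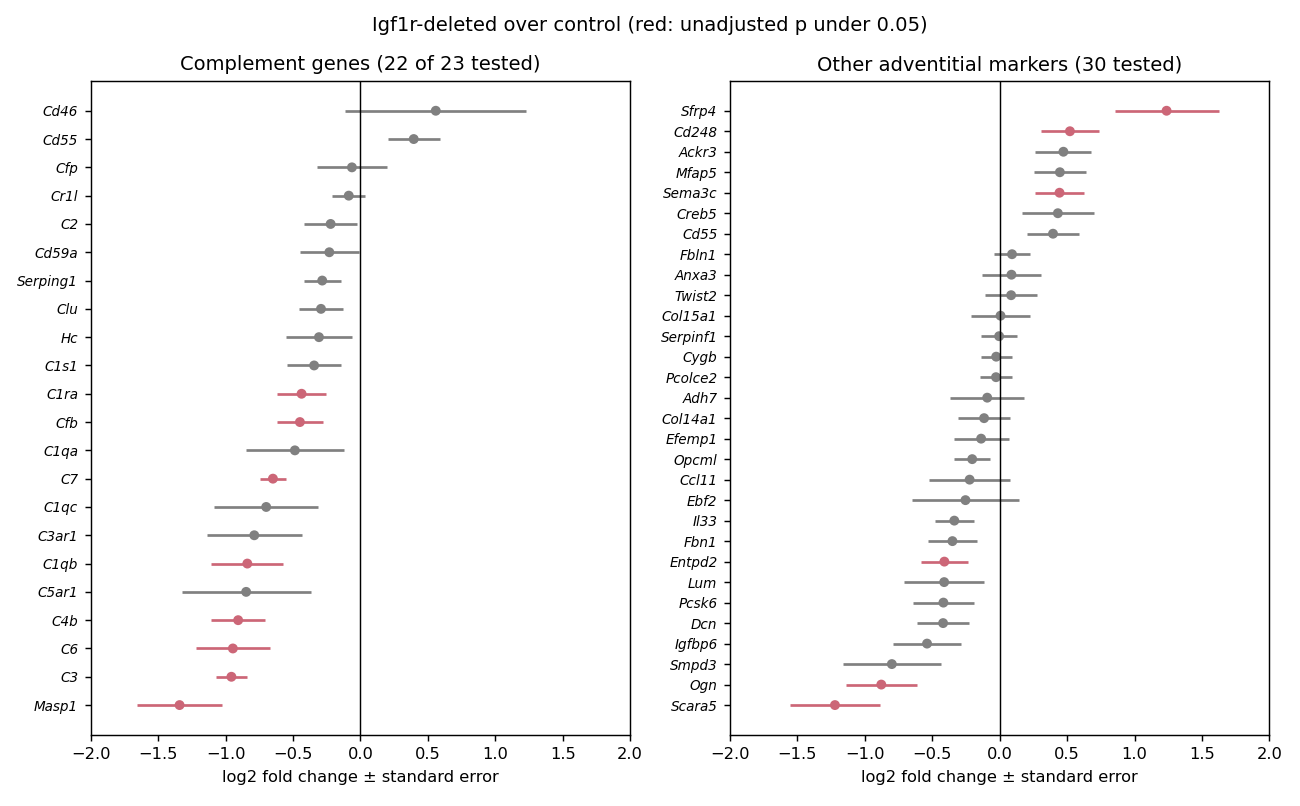
Log2 fold change with its SE for 22 of the 23 complement genes (left) and 30 other adventitial markers (right), mutant over control. Red marks an unadjusted p under 0.05. On the left 20 genes lie below 0 and all 8 red points are there, and on the right red points lie on both sides, 3 below and 3 above.

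Mutant replicate 1 was the highest of its group for 9 of the 10 markers, and for 7 it lay within or above the range of the controls. The exceptions were C3, Clec3b and Dpp4. The share of all tested genes was not computed for these counts, so they cannot be read as a trait of the markers. Mutant replicate 1 was the highest of the 5 libraries for 2 markers, against 18.1% of all tested genes. Control replicate 1 was the highest of the 5 libraries for 5 markers (C3, Clec3b, Gsn, Has1 and Ly6c1), against 26.4% of all tested genes, and mutant replicate 2 was the lowest for 6, against 20.5% of all tested genes. The median log2FC of the 10 markers was −0.32 without control replicate 1, −0.60 without mutant replicate 1 and −0.21 without mutant replicate 3.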

How the data were processed

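Per the labels and the study's methods, RNA of GFP-sorted cells was made into libraries with a NEBNext Ultra kit, and the authors used Trim Galore for trimming, Bowtie2 for alignment to mm10 and GenomicAlignments for counting. The authors deposited raw counts per gene symbol. Versions, strand use and the annotation are not given in the sources used here. Reads across exon junctions or in repeated sequence may be lost or divided by this alignment.

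Counts were tested with edgeR 4.0.16 (R 4.3.3), with TMM factors, filterByExpr, genotype as the only term, the two-sided quasi-likelihood F test and Benjamini-Hochberg adjustment over 15298 genes. Groups and replicate numbers came from the sample labels. Whether libraries are separate animals is not stated, so p-values measure the spread between these libraries. The lowest marker count in a library was 159, and library spread and not counting error limits precision. Alternatives were DESeq2 1.42.0, limma 3.58.1 (voom), other scaling and filters, a replicate block and leaving out each library. DESeq2 gave no adjusted p for 3563 genes. Of 244 list entries 242 were matched to a symbol, some by an older one. Exon lengths, positions and shared sequences came from GENCODE M21, and promoters from RefSeq.

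The members and lists were chosen with earlier results of these data known. Named genes are the 10 markers and, of each related list, the 3 with the smallest p and the 2 most abundant, with defining markers of other cell types. Masp1, Cd55, Cd46, the C1q genes, C3ar1, C5ar1 and Ly6c2 fall outside the rule and were named after their values were seen. A gene that this rule names is not reported here.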

Additional observations from a re-analysis of the deposited data

How the results depend on the processing

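Of 130 recomputed fold changes of the 10 markers, 124 kept their direction. Those that changed were Pi16 and Ly6a under the replicate block (−0.034 and 0.035) and without mutant replicate 3 (−0.0018 and 0.038), Cd34 without control replicate 1 (−0.0050) and Dpt without control replicate 2 (0.019). With a library left out Pi16 ran from −0.0018 to 0.30, Ly6a from −0.40 to 0.038, Cd34 from −0.0050 to 0.49 and Dpt from −0.21 to 0.019. The cause was not tested. Of the list medians, that of pericytes turned positive with library totals (0.074), upper-quartile factors (0.0076), the block (0.015), without control replicate 2 (0.070) and without mutant replicate 3 (0.0099). The endothelial median was 0.15 under the block and 0.19 without mutant replicate 3, the gelsolin median 0.10 without control replicate 1, the hyaluronan median 0.024 without mutant replicate 3 and the other adventitial median 0.0062 without mutant replicate 2. With a library left out these medians started from −0.56 for endothelial, −0.22 for hyaluronan, −0.14 for other adventitial and −0.21 for pericyte lists, and the gelsolin median from −0.17. The leukocyte median was −1.16 without mutant replicate 1.

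Genes with an adjusted p under 0.05 numbered 0 in edgeR (1897 at an unadjusted p under 0.05), 200 with DESeq2's Wald test and 136 with the replicate block. With a library left out they numbered 0 to 45, and those at an unadjusted p under 0.05 from 433 without control replicate 1 to 3183 without mutant replicate 1. Of the markers 1, C3, was called by DESeq2 and under the block (adjusted p = 0.0127), and 0 with any library left out. The same replicate numbers are not stated to pair animals, and deviations from the group means correlated at 0.21 for the libraries numbered 1, at 0.12 for those numbered 2 and also at 0.12 for control replicate 2 and mutant replicate 3. The 2 controls deviate by mirrored amounts, so these values do not show a pairing by number. Markers whose genotypes did not overlap numbered 3 to 8 with a library left out, the latter without mutant replicate 1, where 55.8% of all genes did not overlap. The median of the markers ran from −0.60 to −0.21.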
